A study of Mus musculus with 8 samples.

Results

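The heme synthesis and iron uptake genes examined here are 9 genes taken from a written list: the enzyme genes Alas1, Alas2, Alad, Uros, Urod, Cpox, Ppox and Fech, and the transferrin receptor gene Tfrc. The list does not hold every enzyme of the route. All 9 were present among the 24112 Entrez genes of the study, and 8 of them (all but Alas2) reached the level needed for testing. RNA came from sorted LSK cells (lineage-, Sca1+, Kit+), a marrow population that holds blood stem cells and early progenitors, from C57BL/6 mice that had received transplanted marrow. In the 4 knockout (KO) libraries the transplanted marrow was Traf6-/-;Vav-Cre+, and in the 4 wild type (WT) libraries it was Vav-Cre+, so that Cre was present in both groups. The Vav promoter drives Cre throughout the blood system and not in stem cells alone. The labels give no age, no host genotype and no share of cells remaining from the host, and they do not state whether each library is another mouse. The p-values therefore rest on differences among libraries, whose source may be technical. TRAF6 is a ubiquitin ligase upstream of NF-κB, and the study asked about its role in basal NF-κB activity in these cells.

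Heme is an iron-holding ring that serves as the active group of hemoglobin, cytochromes, catalase and the granule enzyme myeloperoxidase. Its synthesis begins in mitochondria, where 5-aminolevulinate synthase joins glycine and succinyl-CoA, continues in the cytosol, and ends in mitochondria again, where ferrochelatase inserts iron. The first enzyme exists as a general form (Alas1), which heme itself holds down, and an erythroid form (Alas2). Iron arrives bound to transferrin, which the transferrin receptor takes into the cell. When iron is short, iron regulatory proteins bind hairpins called iron-responsive elements, and this blocks translation of Alas2 and ferritin messengers but protects the Tfrc messenger from decay.

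The hairpins are shown because the Tfrc value measured here is the level of a messenger that carries them. A search for a C, a stem of 5 paired bases (G-T pairs allowed) and the loop CAGTGN in the untranslated regions of GENCODE M21 coding transcripts found 1 element in the 5' end of Alas2 and 4 in the 3' end of Tfrc. At least 1 match was found in 160 of 21901 coding genes (0.731%). Ftl1, the ferritin light chain gene, is given for comparison. Each 30-base window was cut from the transcript, with the loop in capitals, and coordinates are of GRCm38, while the submitters' notes name mm9 for the reads; the Alas2 window spans an exon junction, so that its coordinates include an intron.
Alas2 chrX:150547458-150552150, plus strand: ttggttcgtcctCAGTGCagggcaacagga
Tfrc chr16:32631219-32631248, plus strand: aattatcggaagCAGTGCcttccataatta
Tfrc chr16:32631598-32631627, plus strand: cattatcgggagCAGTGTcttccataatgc
Tfrc chr16:32631663-32631692, plus strand: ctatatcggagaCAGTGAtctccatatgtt
Tfrc chr16:32631710-32631739, plus strand: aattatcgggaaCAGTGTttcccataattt
Ftl1 chr7:45459778-45459807, minus strand: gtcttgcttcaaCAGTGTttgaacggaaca

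The promoters of the synthase isoenzymes are shown because the RNA levels of Alas1 and Alas2 lay far apart in these cells. Both are RefSeq sequences on GRCm38.p6, and 8 of the 9 genes had an entry (Fech had none). The Alas1 window holds the 124 bases before an annotated GENCODE start, and some other annotated Alas1 transcripts start further upstream. The Alas2 window holds the 250 bases before the RefSeq start. The GENCODE transcript that carries the Alas2 hairpin starts further upstream, so that the end of this window lies after its start. Capitals mark 3 motifs searched on both strands: the palindromic site of nuclear respiratory factor 1 in Alas1, TTATCT, the GATA motif, and GGGTGGGG, a CACCC box, of which Alas2 held 2 overlapping copies. Of 32851 promoter windows of 300 bases, 0.971% held the first, 11.2% the second and 9.99% the third. Among the 8 genes with an entry, the first was found in Alas1 and in no other, the second in Alas2 and Cpox, and the third in Alas2, Tfrc and 1 of the 2 Alas1 entries. Both CACCC copies of Alas2 lie after that GENCODE start. A match describes these letters and does not show that a factor is bound.
Alas1 chr9:106247857-106247980, minus strand: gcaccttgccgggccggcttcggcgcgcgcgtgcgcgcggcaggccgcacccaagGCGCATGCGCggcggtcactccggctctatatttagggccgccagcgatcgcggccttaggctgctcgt
Alas2 chrX:150547167-150547416, plus strand: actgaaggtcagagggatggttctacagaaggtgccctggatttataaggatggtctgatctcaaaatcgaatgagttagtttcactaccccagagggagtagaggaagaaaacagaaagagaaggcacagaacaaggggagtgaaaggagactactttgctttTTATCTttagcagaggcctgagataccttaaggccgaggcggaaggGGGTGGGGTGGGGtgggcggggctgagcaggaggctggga

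Values are RPKM, reads scaled to the length of the gene and the depth of the library, so that levels of different genes can be set side by side. The estimated depth was 22.5 to 30.7 M reads in KO libraries and 19.2 to 24.9 M in WT libraries. Traf6 was at 0.613, 0.818, 0 and 0.00721 RPKM in KO1 to KO4, against 14.9, 3.52, 9.40 and 7.10 RPKM in WT1 to WT4. The groups did not overlap, and the log2 difference was -2.75 ± 0.53 (SE; limma adjusted p = 0.341). Lane 5 held KO3 and KO4, and lane 4 held the remaining 6. KO3, KO4 and WT2 stood apart: of 3943 genes averaging over 20 RPKM, KO3 listed 175, KO4 61 and WT2 47 at 0, against 6 to 20 in the others, so that a value of 0 is written as listed at 0 and does not show absence. Of the genes of the sort, Kit was at 50.6 to 113 RPKM in KO and 73.8 to 83.1 in WT, and Ly6a (Sca1) at 6.53 to 10.9 RPKM in KO and 7.31 to 11.8 in WT. Of 7 LSK and stem cell markers, all 7 had negative log2 differences, beside 61% of all genes, and 0 had an adjusted p under 0.05 in limma.

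None of the 8 tested genes differed between KO and WT at an adjusted p under 0.05 in limma on log2(RPKM + 1), adjusted over 11276 genes, and 0% of all genes passed it. Traf6, the deleted gene, did not pass it either, so a gene that was not called cannot be read as unchanged. At an unadjusted p under 0.05, 0 of the 8 passed, beside 7.51% of all genes, and with limma's library weights 164 genes were called, none of them of the 9. Group means lay at least 2-fold apart in 1 of the 8 (Alas1), beside 13.8% of all genes. In 0 of the 8 did the KO and WT values lie apart without overlap, beside 5.92% of all genes. The differences, KO minus WT on the log2 scale, had a median of 0.20 over the 8 genes and -0.14 over all genes tested, and 6 of the 8 were positive, beside 39% of all genes.

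**Figure D1:**
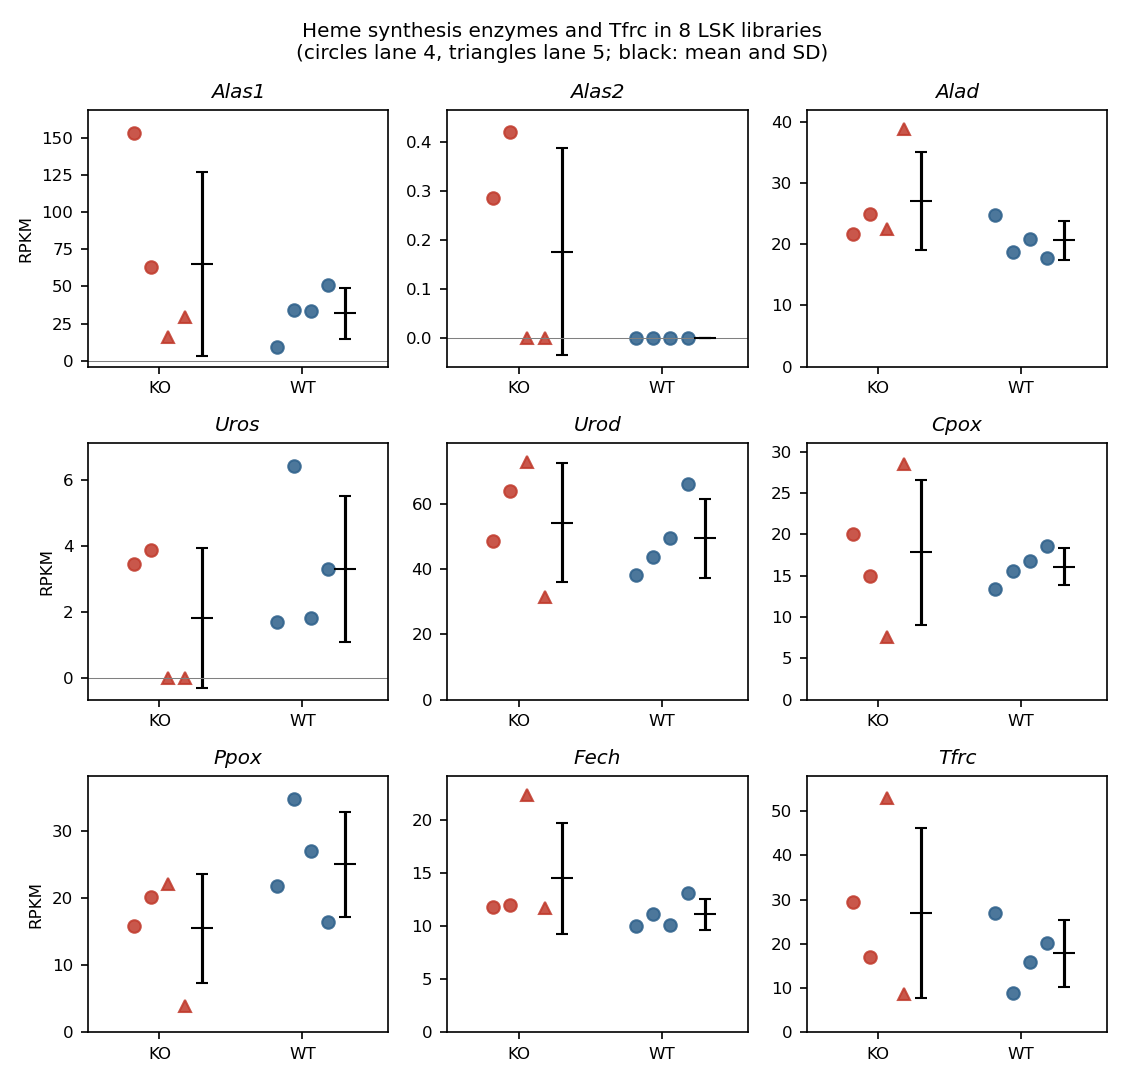
RPKM of the 9 genes (each panel has its own axis) in KO (red) and WT (blue) libraries, with circles for lane 4, triangles for lane 5, and the mean and SD of 4 libraries in black (bars may pass below 0). KO and WT overlap in each of the 8 tested genes, Alas1 in KO1 reaches 153 RPKM, and Alas2 stays at or below 0.419 RPKM.

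RNA for the first enzyme was almost wholly that of the general isoenzyme. Alas1, whose product limits the rate of heme synthesis outside red cells, was at 153, 63.2, 15.9 and 29.1 RPKM in KO1 to KO4, against 9.37, 34.0, 33.3 and 51.2 RPKM in WT1 to WT4. KO1 and KO2 lay above every WT library, KO3 and KO4 lay inside the WT range, and WT1 was the lowest of all. Means were 65.3 ± 61.8 RPKM in KO and 32.0 ± 17.2 in WT (SD, n = 4 each), a log2 difference of 0.74 ± 0.71 (SE; 95% interval -0.86 to 2.34; limma adjusted p = 0.785). The difference was 0.17 without KO1, 0.25 without WT1 and 1.81 ± 0.66 in lane 4 alone, where the adjusted p was 0.398. The SD of Alas1 within groups was 1.21 on the log2 scale, against a median of 0.40 over the 2569 tested genes of similar level (within 2-fold), and 93.2% of these had a smaller one.

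Alas2, the erythroid synthase gene, was at 0.285 and 0.419 RPKM in KO1 and KO2 and listed at 0 in KO3, KO4 and the 4 WT libraries. It did not reach 1 RPKM in any library and was not tested. Erythroid markers were present at very unequal levels. Summed over the 11 in the table, they came to 17.6, 139, 166 and 218 RPKM in KO1 to KO4, against 153, 98.1, 121 and 187 RPKM in WT1 to WT4. The marker of highest mean level was Car1, carbonic anhydrase 1, at 8.51 to 159 RPKM in KO and 43.9 to 111 in WT, followed by Aqp1, a water channel, at 3.24 to 55.1 RPKM in KO and 12.9 to 27.1 in WT. KO1 had the lowest sum and the lowest Car1 of all 8 libraries and was 1 of the 2 with a value above 0 for Alas2. Slc4a1, the anion exchanger of mature red cells, was listed at 0 in all 8 libraries. No erythroid marker had an adjusted p under 0.05.

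Granulocyte-monocyte markers, among them Mpo, the heme enzyme myeloperoxidase, ranked the libraries much as Alas1 did in lane 4. Summed over 9 markers they came to 7944, 3665, 2847 and 2104 RPKM in KO1 to KO4, against 606, 1422, 1633 and 1815 RPKM in WT1 to WT4. Every KO sum exceeded every WT sum, and Mpo was the largest part of each sum. Within lane 4, KO1 was the highest in both measures, KO2 the next, then WT4, and WT1 the lowest. WT2 and WT3 changed places: WT3 lay above WT2 in the marker sum and just below it in Alas1 (33.3 and 34.0 RPKM). The lane 5 libraries departed from this order. KO3 and KO4 exceeded all WT libraries in the marker sum and lay below WT2, WT3 and WT4 in Alas1. Of the 9 markers, 6 were tested, and 0 had an adjusted p under 0.05. All 6 had positive log2 differences, beside 39% of all genes. The groups lay apart without overlap in 2 of the 6 (Mpo and Ctsg), beside 5.92% of all genes. KO4 lay below WT4 in Elane (227.8 and 306.9 RPKM), Prtn3 (376.3 and 432.0) and Ms4a3 (35.0 and 37.1). Mpo itself was at 3687, 2167, 1499.9 and 1368 RPKM in KO1 to KO4, against 337, 779, 938 and 972 RPKM in WT1 to WT4 (log2 difference 1.52 ± 0.40, limma adjusted p = 0.451). Among genes of more mature granulocytes, S100a9 was at 9.03, 3.48, 0 and 35.7 RPKM in KO1 to KO4, against 6.38 RPKM in WT4 and 0 in the other WT libraries. S100a8 reached 15.0 RPKM in KO1 and 2.27 in WT3, Ngp at most 0.0382 RPKM in KO and 10.3 in WT2, and Ltf at most 0.0162 RPKM in KO, being listed at 0 in WT. In bulk RNA, a change in the share of a cell type and a change in RNA per cell cannot be told apart. The comparison of Alas1 with these markers was not planned, and the part of these markers in the Alas1 values was not tested.

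**Figure D2:**
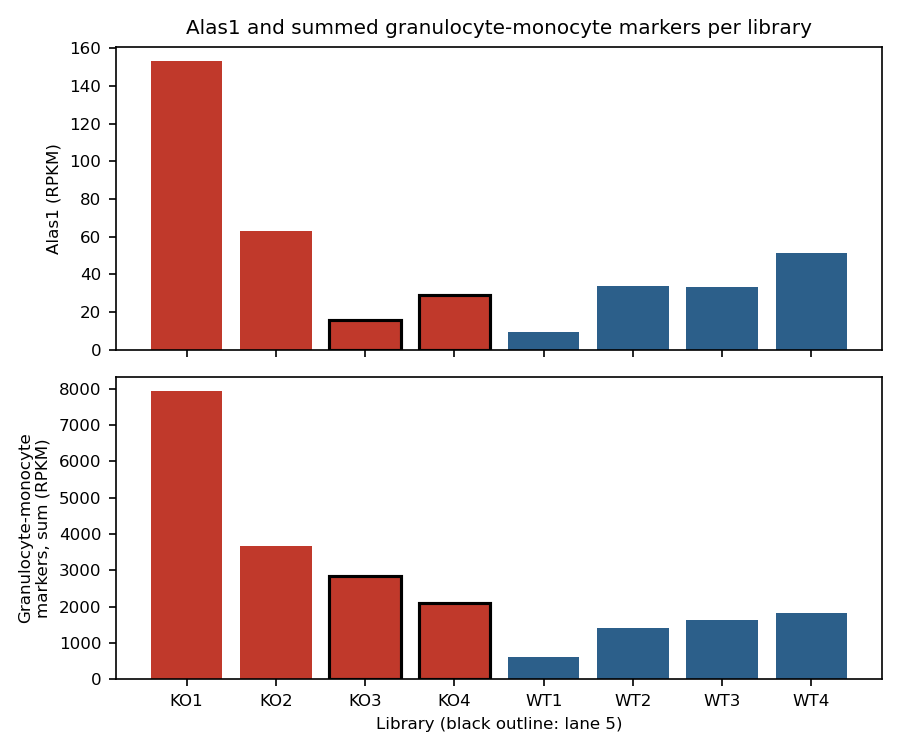
Alas1 (top) and the sum of 9 granulocyte-monocyte markers (bottom) in RPKM, 1 bar per library, with KO in red, WT in blue and lane 5 outlined in black. KO1 is highest and WT1 lowest in both panels, and KO3 and KO4 are high in the lower panel only.

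Of the cytosolic enzymes, Alad and Urod were well expressed in all 8 libraries. Alad, which encodes the dehydratase that joins aminolevulinate molecules into porphobilinogen, was at 21.7, 24.9, 22.5 and 38.8 RPKM in KO1 to KO4, against 24.8, 18.7, 20.9 and 17.8 RPKM in WT1 to WT4. Only WT1 among the WT libraries reached into the KO range, and KO4 was the highest of all. The log2 difference was 0.35 ± 0.25 (95% interval -0.21 to 0.90; limma adjusted p = 0.734). Urod, the decarboxylase that removes carboxyl groups from uroporphyrinogen, was at 48.5, 64.0, 72.7 and 31.3 RPKM in KO and 38.2, 43.7, 49.5 and 66.1 RPKM in WT. It was the enzyme of highest level in 6 of the 8 libraries, exceeded by Alas1 in KO1 and by Alad in KO4. Its log2 difference was 0.09 ± 0.29 (95% interval -0.55 to 0.73).

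Uros, which encodes the synthase that closes the ring, was the lowest of the tested enzymes. It was at 3.45 and 3.89 RPKM in KO1 and KO2 and listed at 0 in KO3 and KO4, against 1.70, 6.44, 1.84 and 3.31 RPKM in WT1 to WT4. The log2 difference of -0.87 ± 0.69 (limma adjusted p = 0.749) rested on the zeros of lane 5, since in lane 4 alone it was 0.24 and in all 8 libraries with a pseudocount of 0.1 it was -2.27.

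The last steps take place in mitochondria. Cpox, coproporphyrinogen oxidase, was at 20.0, 15.0, 7.54 and 28.5 RPKM in KO1 to KO4, against 13.4, 15.5, 16.8 and 18.6 RPKM in WT1 to WT4. The WT values lay inside the spread of the KO values, with KO3 the lowest and KO4 the highest of all, and the log2 difference was 0.01 ± 0.37 (95% interval -0.82 to 0.83). Ppox, protoporphyrinogen oxidase, was at 15.9, 20.1, 22.1 and 3.92 RPKM in KO and 21.8, 34.8, 27.0 and 16.4 RPKM in WT. KO4 was far below the rest, and the other KO libraries overlapped the lower WT values. The log2 difference was -0.82 ± 0.48 (95% interval -1.90 to 0.25; limma adjusted p = 0.699) and was -0.32 without KO4.

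Fech, ferrochelatase, which places iron in the ring, was at 11.8, 12, 22.3 and 11.7 RPKM in KO, against 10.0, 11.1, 10.1 and 13.1 RPKM in WT. Apart from KO3 the values of both groups fell between 10.0 and 13.1 RPKM, and without KO3 the log2 difference of 0.31 ± 0.30 became 0.09. Among the 4755 tested genes of similar level, 14.9% had a smaller SD within groups than Fech, and among the 4157 of the level of Alad 17.5% did, so that these enzymes were among the steadier genes of their level. The same share was 54.5% for Cpox, 59.5% for Urod, 64.6% for Uros and 76.6% for Ppox.

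Tfrc, which supplies the iron, was at 29.4, 17.0, 52.9 and 8.58 RPKM in KO1 to KO4, against 26.9, 8.82, 15.8 and 20.2 RPKM in WT1 to WT4. Its highest and lowest values were the lane 5 libraries KO3 and KO4, KO1 lay just above the WT range and KO2 inside it. Means were 27.0 ± 19.3 RPKM in KO and 17.9 ± 7.58 in WT (SD, n = 4 each), and the log2 difference was 0.38 ± 0.52 (95% interval -0.78 to 1.54; limma adjusted p = 0.844). Without KO3 the difference was -0.03. Dividing cells take up much iron, and proliferation markers summed over 10 genes to 1001.5, 955, 1149 and 942 RPKM in KO and 1027, 883, 964 and 1035 RPKM in WT, so that KO3 was highest there too, and KO4 and WT2 were the lowest in KO and WT for both the marker sum and Tfrc. The sum spanned only 883 to 1149 RPKM, while Tfrc spanned 8.58 to 52.9. Single markers differed in order: in KO3, Ccnb1 was at 169.2 RPKM (65.3 to 77.4 in the other KO libraries), while Cdk1, at 50.1, was the lowest of KO. Mki67 alone of the 10 did not overlap, lower in KO (50.8 to 76.7 RPKM, against 79.6 to 94.6 in WT), beside 5.92% of all genes without overlap. None of the 10 markers had an adjusted p under 0.05. The comparison of Tfrc with these markers was not planned, and their part in the Tfrc values was not tested.

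**Figure D3:**
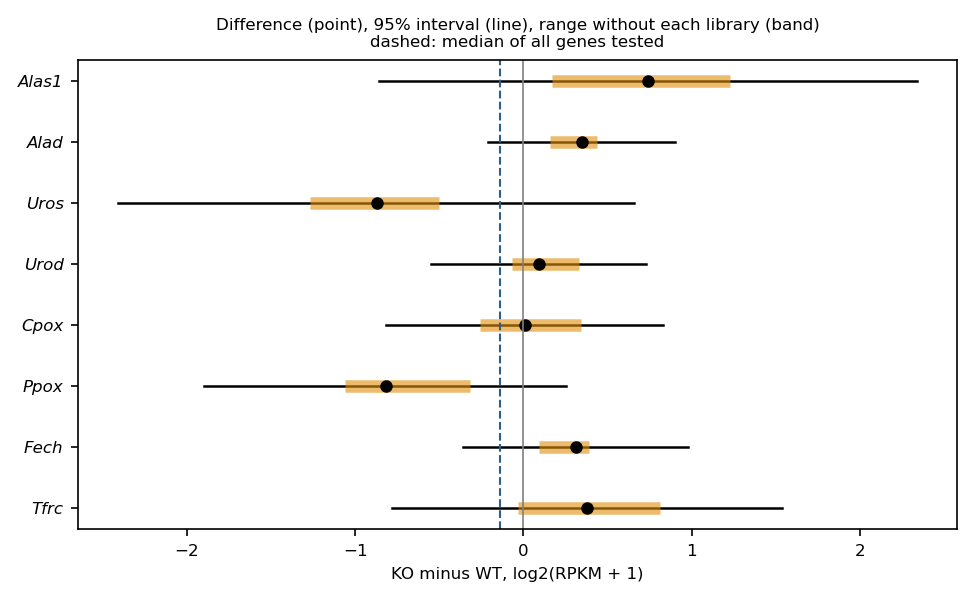
Difference KO minus WT in log2(RPKM + 1) for the 8 tested genes (points), with the 95% interval from limma (lines) and the range when each library is left out in turn (bands); the dashed line is the median of all genes tested, -0.14. Each interval includes 0, and the band reaches below and above 0 for Urod, Cpox and Tfrc.

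Ordered by mean level, KO cells had Alas1 (65.3 RPKM), Urod (54.1), Tfrc and Alad (both 27.0), Cpox (17.8), Ppox (15.5), Fech (14.5), Uros (1.83) and Alas2 (0.176). WT cells had Urod (49.4 RPKM), Alas1 (32.0), Ppox (25.0), Alad (20.6), Tfrc (17.9), Cpox (16.1), Fech (11.1), Uros (3.32) and Alas2, listed at 0. In KO, the ranges over 4 libraries of neighbours in this order overlapped except between Fech and Uros. In WT they overlapped down to Cpox, and those of Cpox, Fech, Uros and Alas2 lay apart. Among all genes tested, 86.3% had a lower mean level than Urod, 85.5% than Alas1, 50.9% than Fech and 9.9% than Uros.

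The genes whose profile over the 8 libraries was nearest were found among 3929 tested genes averaging at least 20 RPKM, by the root mean square difference of centred log2 values. Nearest to Tfrc were Hat1, a histone acetyltransferase gene (0.33), Pak1ip1 (0.35) and Anxa7, an annexin gene (0.37). Nearest to Urod were S100a13 (0.15), Erg28 (0.15) and Imp3 (0.16). For Alas1, added after its values were seen, they were Rab44 (0.40), Ptma-ps2 (0.46), a pseudogene whose reads may belong to its parent, and Cst7, which encodes cystatin F, an inhibitor of granule proteases (0.51). Rab44 was at 49.3, 33.7, 8.61 and 17.7 RPKM in KO1 to KO4, against 8.01, 13.5, 14.0 and 21.8 RPKM in WT1 to WT4, with KO1 highest and WT1 lowest as for Alas1.

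Around these genes, 48 others of heme and iron handling were listed in 6 groups, and 46 were tested. In limma 0 of the 46 had an adjusted p under 0.05, and 3 had an unadjusted p under 0.05, all higher in KO, beside 2.77% of all genes higher and 4.74% lower at that p. The median log2 difference of the 46 was -0.10, beside -0.14 over all genes tested.

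**Figure D4:**
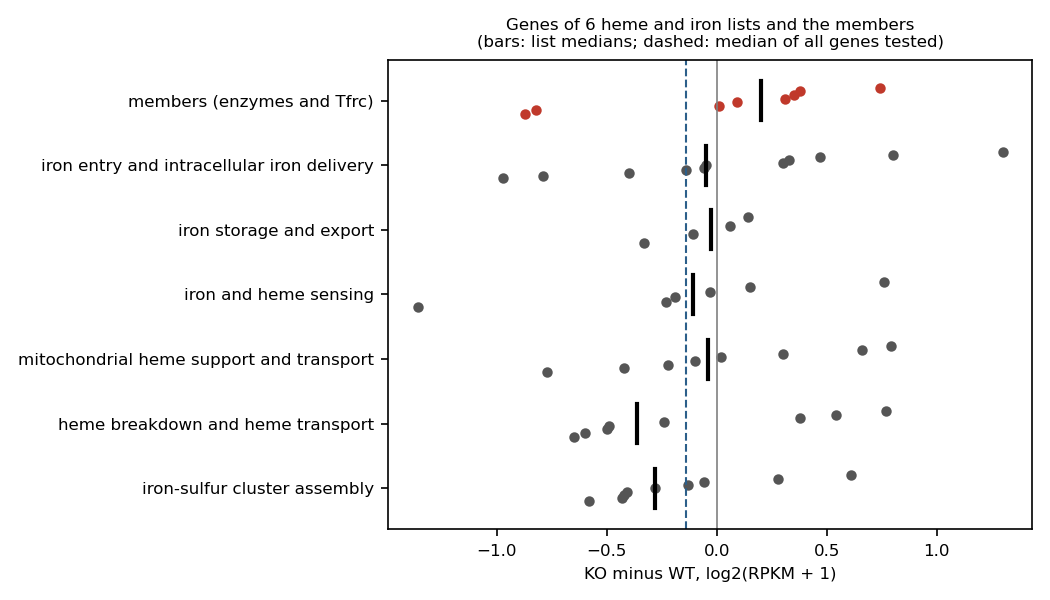
Log2 differences KO minus WT of the 8 tested enzymes and Tfrc (red) and of 46 tested genes in 6 heme and iron lists (grey), with a bar at each list's median and a dashed line at the median of all genes tested. List medians lie between -0.37 and 0.20, and each list has genes on both sides of 0.

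Of 11 genes for iron entry and delivery, 1 had an unadjusted p under 0.05. Steap3, the endosomal reductase that prepares iron delivered by the transferrin receptor for transport, was at 9.42, 10.8, 19.2 and 8.12 RPKM in KO, against 4.03, 4.35, 1.82 and 7.12 RPKM in WT. The groups did not overlap, KO3 was the highest, and the log2 difference was 1.30 ± 0.46 (limma unadjusted p = 0.0175, adjusted p = 0.627). Slc11a2, the endosomal iron transporter DMT1, averaged 8.32 ± 7.16 RPKM in KO and 3.52 ± 0.810 in WT, a log2 difference of 0.80 ± 0.53. The members of highest level, the iron chaperone gene Pcbp1 and the sorting nexin gene Snx3, which helps recycle the transferrin receptor, had log2 differences of 0.30 ± 0.18 and -0.05 ± 0.22.

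Ferritin messengers were abundant. Ftl1 was at 1320, 1226, 1431 and 1189 RPKM in KO, against 1033, 1208, 1186 and 1250.2 RPKM in WT, and Fth1, the heavy chain gene, averaged 442 ± 74.6 RPKM in KO and 474 ± 66.4 in WT. Their log2 differences were 0.14 ± 0.12 and -0.11 ± 0.17. Slc40a1, the iron exporter ferroportin, averaged 0.783 ± 0.905 RPKM in KO and 1.17 ± 0.842 in WT, and Heph, an iron oxidase gene, was listed at 0 in all 8. None of the 4 tested genes of this list had an unadjusted p under 0.05.

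None of the 6 genes of iron and heme sensing had one either. Ireb2, which encodes iron regulatory protein 2, averaged 15.5 ± 1.75 RPKM in KO and 18.5 ± 3.11 in WT, a log2 difference of -0.23 ± 0.24. Eif2ak1, the heme-regulated kinase that restrains translation when heme is short, was at 22.3, 26.3, 0 and 14.9 RPKM in KO, against 24.8, 28.2, 21.6 and 25.1 RPKM in WT, and its log2 difference of -1.36 ± 0.93 included the value listed at 0 in KO3. Hfe, a partner of the transferrin receptor, had a log2 difference of 0.76 ± 0.61.

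Among 8 genes for mitochondrial support of heme synthesis, Slc25a39, a carrier that brings glutathione into mitochondria, had the smallest p of the 46. It was at 89.5, 80.1, 130.5 and 91.4 RPKM in KO1 to KO4, against 45.0, 48.0, 60.3 and 70.9 RPKM in WT1 to WT4. Every KO value exceeded every WT value, and the log2 difference was 0.79 ± 0.22 (limma unadjusted p = 0.00498, adjusted p = 0.490). Tmem14c, a porphyrin importer, averaged 52.8 ± 6.86 RPKM in KO and 43.2 ± 10.2 in WT, and the transporter gene Abcb6 averaged 6.76 ± 3.21 and 3.85 ± 1.55 RPKM in KO and WT, log2 differences of 0.30 ± 0.21 and 0.66 ± 0.48.

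Heme breakdown and heme transport gave 1 gene of 8 with an unadjusted p under 0.05. Slc48a1, a heme transporter of lysosomal membranes, was at 96.4, 93.2, 107 and 109 RPKM in KO, against 78.0, 70.3, 75.5 and 87.2 RPKM in WT, again without overlap (log2 difference 0.38 ± 0.16, limma unadjusted p = 0.0359, adjusted p = 0.637). Pgrmc1, a heme-binding membrane protein gene, was at 54.9, 65.7, 22.5 and 61.4 RPKM in KO, against 79.8, 67.5, 71.3 and 71.0 RPKM in WT. The groups did not overlap there either, with KO lower (-0.60 ± 0.31, unadjusted p = 0.0857 in limma). Its relative Pgrmc2 had a difference of 0.77 ± 0.45, and Flvcr2 was listed at 0 in all 8 libraries. Of the 46 tested genes, 3 were higher and 1 lower in KO without overlap, beside 2.05% and 3.88% of all genes.

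Iron-sulfur cluster assembly, which draws on the same mitochondrial iron, had 7 of 9 genes with negative log2 differences, beside 61% of all genes. The median was -0.28, beside -0.14 over all genes tested, and no gene of the list had an unadjusted p under 0.05. Isca2, a late assembly factor, averaged 26.8 ± 2.96 RPKM in KO and 36.6 ± 6.16 in WT (-0.43 ± 0.21), and Nfu1, a cluster carrier, averaged 91.9 ± 37.0 RPKM in KO and 58.8 ± 16.9 in WT (0.61 ± 0.30). Hscb, a co-chaperone, and Glrx5, a glutaredoxin, had differences of -0.58 ± 0.37 and -0.28 ± 0.31. Glrx5 held the median of the list. In KO3 it was at 28.6 RPKM, against 73.7 to 79.2 in the other KO libraries and 72.0 to 74.4 in WT. Nfu1 was at 147 RPKM in KO3, against 69.4 to 75.9 in the other KO libraries and 38.9 to 77.6 in WT.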

How the data were processed

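Poly(A) RNA of 8 LSK libraries was sequenced. The submitters' processing notes name TopHat, edgeR and mm9, without role or version; how reads were counted is not given in the sources used here. Values deposited by the authors are RPKM per Entrez gene. The unit is inferred, since values times transcript length sum to 1.14 to 1.17 M per library. Depth was estimated from the smallest values (at most 0.2 RPKM) of single-transcript genes. Of these, 54.3% to 65.2% per library were whole reads within 0.05, so counts were not recovered, and no count test or counting interval was used. Symbols were found for 24029 of 24112 IDs in reference tables.

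The 11276 genes reaching 1 RPKM in 4 or more libraries were tested as log2(RPKM + 1), which understates changes of low genes, using limma 3.58.1 in R 4.3.3 (genotype term, trend and robust variance) with Benjamini-Hochberg adjustment over all of them and a threshold of 0.05. Every member and Traf6 were named, with the 3 genes of smallest p and 2 of highest level in each heme or iron list, the nearest profiles, and the 2 highest genes of a marker list or any at 0 throughout; other marker genes were chosen after their values were seen. Members and lists were chosen with earlier results of these data known. No value above 0 was exactly equal between 2 libraries of a group in the genes tested; KO3 and KO4 were both listed at 0 in 6.86% of them, against at most 0.86% in any other pair. Alternatives covered the filter, pseudocount, lane, replicate number, normalization, library weights, variance model and leaving out libraries.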

Additional observations from a re-analysis of the deposited data

Results flagged for a closer look

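In 9 cases a library lay far from the other 3 of its group, with a gap to them, as a share of the group's range, above Dixon's 95% critical value for 4 samples; 91 groups of 4 were examined, and chance flags about 1 in 20. KO3 gave 4 of them: Fech at 22.3 RPKM (others 11.7 to 12), Slc11a2 at 19.0 (3.52 to 5.49), Glrx5 at 28.6 (73.7 to 79.2) and Nfu1 at 147 (69.4 to 75.9). Other KO values were Cd79b at 6.65 RPKM in KO4 (14.5 to 16.1) and Cd3d at 0.441 in KO1 (0 to 0.0666). In WT, Ireb2 was at 13.8 RPKM in WT4 (20.0 to 20.1), Pf4 at 33.2 in WT4 (11.7 to 15.0) and Snx3 at 224 in WT2 (163 to 172).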

How the results depend on the processing

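None of the 9 genes and none of the 46 heme and iron genes was called under any of 19 alternatives, of which leaving out WT2, KO3 and KO4 together was chosen after seeing the data. Apart from library weights, these settings called 0 to 3 genes over all genes, and Traf6 was called with library weights only. The lack of calls therefore does not show that levels were equal. Alas1, Alad, Ppox and Fech kept their sign in all 19, with log2 differences of 0.17 to 1.91, 0.14 to 0.44, -1.06 to -0.24 and 0.09 to 0.39. Uros turned to 0.24 with lane as a covariate and in lane 4 alone, 0.34 with library weights and 0.54 without WT2, KO3 and KO4. Cpox turned to -0.0016 with a pseudocount of 0.1, -0.02 centred on highly expressed genes and -0.03 with library weights. Leaving out 1 library at a time gave -0.07 to 0.33 for Urod, -0.26 to 0.34 for Cpox, -0.03 to 0.81 for Tfrc, 0.03 to 0.26 for the median of the members, 0 to 2 genes called over all genes (2 without KO3), 553 to 1066 genes at an unadjusted p under 0.05, 0 to 1 members without overlap and 2 to 5 heme and iron genes at that p. Requiring 1 RPKM in all libraries gave 1 gene called and a median of 0.31 over 7 members. Library weights gave 164 genes called, 1994 at an unadjusted p under 0.05, 7 heme and iron genes at that p and a Traf6 difference of -2.52 (limma adjusted p = 0.00785). Lane 4 alone gave 2 genes called and 1 member without overlap, and leaving out WT2, KO3 and KO4 gave 3 genes called, 1582 at an unadjusted p under 0.05, 2 members without overlap and 5 heme and iron genes at that p. With fewer libraries, groups lie apart without overlap more often by chance. The share over all genes was not computed for these settings, so these counts of members cannot be read as a result. At an unadjusted p under 0.05 in limma, 1 member (Alas1) was found with lane as a covariate (1.81, adjusted p = 0.726), with library weights (1.27, adjusted p = 0.237) and in lane 4 alone (1.81, adjusted p = 0.398). Lane 5 held only KO3 and KO4, so lane as a covariate gives the same difference as lane 4 alone. Library weights were lowest for KO3 (0.137) and KO4 (0.351). These settings are therefore not separate evidence. The replicate numbers did not pair the libraries (correlations of -0.08 to -0.04), and the replicate block gave 705 genes and 1 member (Ppox, -0.82, limma adjusted p = 0.781) at that p. Quantile normalization moved the median of all genes to 0.00, with 0.24 for the members. The causes were not tested. Uros and Traf6 gave no value where 1 RPKM was required in all libraries. Depth is an estimate, so the error of low values such as Alas2 is not known.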

Other observations

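Of the 7 LSK and stem cell markers, 4 had an unadjusted p under 0.05 in limma, all lower in KO, beside 4.74% of all genes lower at that p. Flt3, a receptor of multipotent progenitors, was at 31.4, 42.5, 54.0 and 52.1 RPKM in KO, against 89.2, 85.5, 78.3 and 59.3 RPKM in WT (log2 difference -0.80 ± 0.23, limma adjusted p = 0.507). Mecom, a stem cell transcription factor gene, was at 1.80, 3.36, 0 and 2.55 RPKM in KO, against 10.3, 4.99, 8.96 and 8.63 RPKM in WT (-1.81 ± 0.56, limma adjusted p = 0.541). The groups did not overlap in Flt3 and Mecom and did in Hlf (-1.78 ± 0.75) and Procr (-1.27 ± 0.38). Cd34 was at 178 to 284 RPKM in KO and 221 to 278 in WT (-0.17 ± 0.18).

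Markers of other cell types were present at differing levels. The 6 megakaryocyte markers summed to 51.5 to 149 RPKM in KO and 70.0 to 119 in WT, with Itga2b, an integrin gene, and Pf4, platelet factor 4, the highest. The 5 B cell markers summed to 6.65 to 18 RPKM in KO and 5.91 to 22.1 in WT. The highest was Cd79b, at 6.65 to 16.1 RPKM in KO and 4.78 to 16.3 in WT, while Cd79a was listed at 0 in all 8 libraries. The 5 T cell markers summed to 3.05 to 23.0 RPKM in KO and 19.2 to 38.6 in WT. Most of this was the kinase gene Lck, at 3.04 to 22.6 RPKM in KO and 19.1 to 35.2 in WT (-1.77 ± 0.53, limma unadjusted p = 0.0074, adjusted p = 0.515), while Cd3d reached 0.441 RPKM in KO and 3.42 in WT and Cd3g was listed at 0 in all 8. The 5 stromal and endothelial markers summed to 9.26 to 24.6 RPKM in KO and 16.3 to 27.6 in WT. Most of this was Pecam1, which blood cells also express, at 9.25 to 23.3 RPKM in KO and 13.4 to 26.3 in WT, and Col1a1 was listed at 0 in all 8.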
